A study of Arabidopsis thaliana with 16 samples.

Results

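This account concerns the strongest oxidative treatment of a dose series in Arabidopsis seedlings: 100 mM hydrogen peroxide (H2O2) against medium without H2O2. It uses 8 of the 16 arrays of the series. The tested side is 1 array of seedlings given 100 mM H2O2 and 1 µM epi-brassinolide (BL) and 1 array of seedlings given 100 mM H2O2 and the ethanol solvent of BL. The other side is 3 arrays with BL and 3 with solvent at 0 mM H2O2, the medium-only control. The arrays were chosen by the dose in their titles, and the comparison was made across all genes, with BL as an additive term.

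All seedlings were wild type of the Col ecotype, grown in liquid medium under long days to the age of 12 days and harvested whole. They were kept in darkness for 1 h and for the rest of the treatment, so every array, controls included, comes from darkened seedlings. H2O2 or plain medium was added for 30 min, and BL or solvent was then added for 1 h with the H2O2 still present, so the H2O2 exposure had lasted longer than the hormone. Each 100 mM group is a single array, and the labels do not say whether the replicates at 0 mM are separate cultures. The p-values therefore measure only the spread between these arrays, which may be technical.

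H2O2 is a reactive oxygen species that forms in chloroplasts, mitochondria, peroxisomes and the cell wall. It crosses membranes, oxidises thiol groups of proteins, and acts as a signal at low amounts and as a toxic oxidant at high ones. Plants remove it with catalase and with peroxidases that use ascorbate, glutathione or phenolic compounds. Oxidative stress is known to raise genes for glutathione S-transferases, UDP-glycosyltransferases and heat shock proteins. In root tips and elongating roots, the balance between H2O2 and other oxygen species is known to bear on growth.

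The values are log2 signals per probe set, so a difference of 1 is a doubling, and the lowest value the processing gives is 2.12. The 2 arrays at 100 mM correlated with each other at 0.987 across probe sets. One control, the third solvent replicate at 0 mM, stood apart from the rest of its group. Its correlations with the other controls were 0.813 to 0.906. Those among the other controls were 0.956 to 0.990, and those of the 100 mM arrays with them were 0.910 to 0.931. With the third solvent replicate the 100 mM arrays correlated less, at 0.855 to 0.877. Probe sets are not independent replicates, and these correlations are descriptions. A measure of RNA quality moved with the treatment. The signal of probe sets near the 3′ end of 6 control transcripts exceeded that of their 5′ probe sets by 2.03 with BL and 1.88 with solvent at 100 mM. In the 6 controls the lowest, median and highest excess were 1.40, 1.55 and 1.60 on the log2 scale. The 100 mM arrays thus lay above every control on this measure, and its part in the results below was not tested. The 5S rRNA control probe set had 6.21 with BL and 5.81 with solvent at 100 mM, against 4.26, 4.46 and 5.28 as the lowest, median and highest control. That of 25S rRNA had 12.93 and 13.09, within its control range of 12.72 to 13.92. Both organs of the seedling were present on all arrays. The leaf gene RCA, which encodes Rubisco activase, had 14.60 with BL and 14.76 with solvent at 100 mM, and 13.70, 14.52 and 14.72 as the lowest, median and highest control. The root glucosidase gene PYK10 had 14.13 and 13.91 at 100 mM, and 12.00, 13.52 and 13.66 in the controls.

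At 100 mM H2O2, detoxification genes, a calcium sensor gene and several plastid-encoded genes rose, while 3 guard cell genes, the expansin gene EXPA16, the sucrose transporter gene SWEET10 and a peroxidase gene of root hairs fell. Of 12953 probe sets tested with limma, 640 passed a Benjamini-Hochberg adjusted p of 0.05 and are called here, which is 4.94%. Of these, 386 were higher at 100 mM (2.98% of those tested) and 254 were lower (1.96%). The number of calls depended strongly on the arrays and the model. On the same probe sets it ran from 173 to 3482 with a single control left out, and it was 10 with a term for replicate number. The median log2 change was 1.37 among the called rises and -1.10 among the called falls, and 448 of the 640 changed by at least 1. Changes of at least 3 on the log2 scale were met by 38 called rises and 16 called falls. Both 100 mM arrays lay above all 6 controls for 386 of 386 called rises, and both lay below all 6 for 252 of 254 called falls. Over all probe sets tested, 13.2% lay above all controls in this way and 12.8% below.

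The annotation gives 322 of the called probe sets 1 gene, 16 several genes and 302 none, and only those with 1 gene are named. The 15 largest rises and the 15 largest falls among them, each with both 100 mM arrays outside the range of the controls, are taken up by role below. Where the files give only a locus, the family is stated as general background if it is known with certainty. A probe set could pass the filter, a value of at least 5 on at least 2 arrays, through the treated arrays alone. This holds for 61 of the 386 called rises, which had fewer than 2 controls at that value, and 36 of the 61 were still called with no filter. Among the 15 largest rises it holds for 8, of which 5 were still called with no filter. Falls could pass through the controls alone in the same way, and these were not counted. Among them are AT4G26010, AT1G75880, EXPA16, SWEET10, AT4G14480 and AT1G52070, which were under 5 on both 100 mM arrays. With no filter the calls of AT4G14480 and AT1G52070 were lost, and the others of these were kept. None of the 30 genes changed direction when any single array was left out, but their choice without overlap fixed this in advance. Calls were lost without any 1 array other than solvent replicate 3 at 0 mM. Of the 30, limma still called 7 without the BL array at 100 mM and 11 without the solvent array at 100 mM. It called 23, 26 and 30 without solvent replicate 1, 2 or 3 at 0 mM, and 20, 19 and 22 without BL replicate 1, 2 or 3. The genes called in each of these 8 fits were AT5G05220, GSTU25, CML37, GT72B1, AT5G02540 and SWEET10.

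Genes that attach glutathione or sugars to small molecules were among those raised most. GSTU25, a tau-class glutathione S-transferase that joins glutathione to reactive compounds, had 6.89 with BL and 6.80 with solvent at 100 mM. The controls had a lowest, median and highest value of 2.12, 2.27 and 2.58, close to the smallest value the processing gives. Both treated arrays were thus far above all controls, and the change was 4.52 ± 0.18 on the log2 scale (SE, limma adjusted p = 0.000178). GSTU25 passed the filter through the treated arrays alone, and with no filter its adjusted p was 0.00144. GSTU25 was the single called rise among 7 tested glutathione S-transferase genes, whose median change was 0.38, or 0.65 without the BL array and 0.11 without the solvent array at 100 mM. The median over all genes with a probe set of their own was -0.03.

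UDP-glycosyltransferases move sugar from a nucleotide donor to hormones, flavonoids, phenols and foreign compounds. Of 29 tested members, 5 rose (17.2%) and none fell in the fit to 8 arrays. Over all genes with a probe set of their own, 2.83% rose and 1.79% fell. The median change was 0.25, or 0.49 without the BL array and 0.10 without the solvent array at 100 mM. Both 100 mM arrays lay above all controls for 11 of the 29 and below all controls for 3. The shares over all probe sets tested were 13.2% above and 12.8% below. UGT73B4, which is known to glucosylate flavonols and some foreign phenols, had 6.50 with BL and 7.10 with solvent at 100 mM. Its controls had 2.12, 2.26 and 4.80 as the lowest, median and highest value, so the groups did not overlap, although 1 control lay well above the rest. The change was 4.14 ± 0.61 (SE, limma adjusted p = 0.017). UGT73B4 passed the filter through the treated arrays alone, its adjusted p was 0.0534 with no filter, and its call was lost without either 100 mM array or any 1 of the BL replicates at 0 mM. GT72B1, which glucosylates monolignols and chlorinated phenols, had 10.10 with BL and 10.15 with solvent at 100 mM, against 6.27, 6.82 and 7.18 in the controls. The treated arrays agreed closely and lay about 3 units above the highest control, and the rise was 3.36 ± 0.19 (SE, limma adjusted p = 0.000582), or 10.3-fold. UGT85A5 rose by 1.85 (limma adjusted p = 0.00647), UGT76E2 by 1.11 (adjusted p = 0.0303) and UGT73B1 by 0.90 (adjusted p = 0.032). With no filter these adjusted p were 0.0161, 0.0532 and 0.0437. The count of called UDP-glycosyltransferases was 1 without the BL array at 100 mM and 3 without the solvent array. It was 3 and 4 without solvent replicate 1 or 2 at 0 mM, 2 without any 1 of the BL replicates, and 10 rises with 4 falls without solvent replicate 3.

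Berberine bridge enzyme-like proteins are flavin enzymes of the cell wall that oxidise sugars, oligosaccharides or alcohols, and in some members this yields H2O2. Of 13 tested members, 2 rose (15.4%) and none fell, beside 2.83% and 1.79% of all genes with a probe set of their own. The median change was 1.03, but -0.07 without the BL array and 1.62 without the solvent array at 100 mM. The mean level of the 13 was 7.36 with BL and 7.01 with solvent at 100 mM, against 5.30, 5.74 and 8.72 in the controls, so solvent replicate 3, the highest control, exceeded both treated arrays. AT5G44400 had 5.51 with BL and 5.77 with solvent at 100 mM, against 2.77, 2.89 and 3.60 as the lowest, median and highest control. The treated arrays lay above all controls, and the rise was 2.63 ± 0.22 (SE, limma adjusted p = 0.00318). AT4G20820 rose by 1.45 (adjusted p = 0.0267). Both genes passed the filter through the treated arrays alone, and with no filter their adjusted p were 0.00962 and 0.0589. Without either 100 mM array 0 members were called, without solvent replicate 1 or any 1 of the BL replicates at 0 mM 1 rose, and without solvent replicate 3 5 rose. The members of this group, and of the other groups given by locus (heat shock, root hair, guard cell, lectin and glutaredoxin genes), were collected after the files had been seen.

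**Figure D1:**
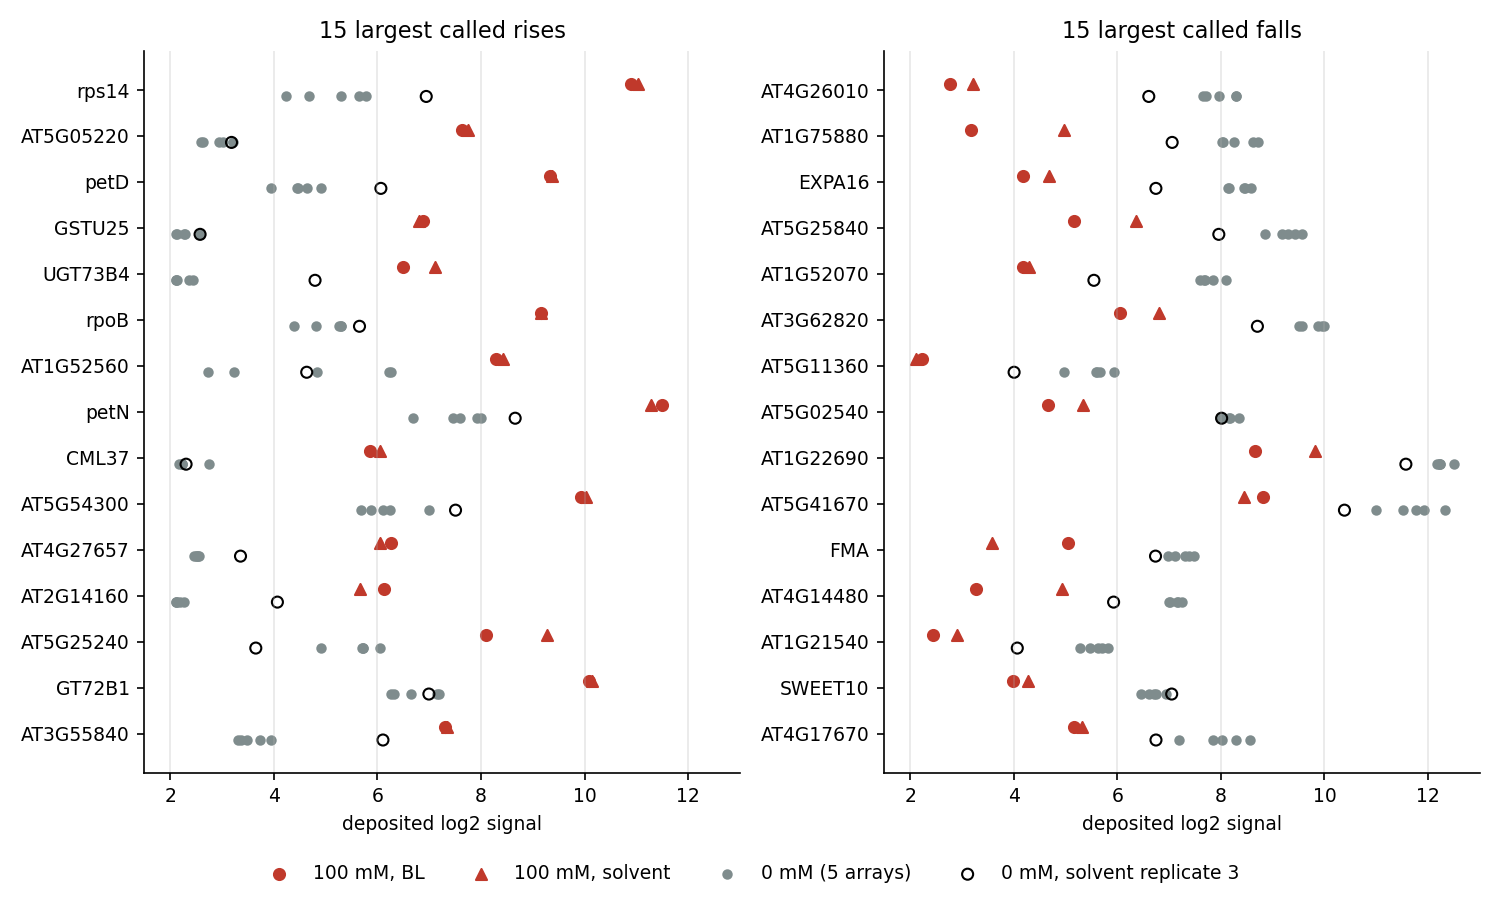
Deposited log2 signal (horizontal axis) of the 15 largest rises and the 15 largest falls by gene (vertical axis), with 100 mM arrays in red (circle with BL, triangle with solvent) and 0 mM arrays below them in grey, the open circle being solvent replicate 3. The genes were chosen for a lack of overlap between red and grey, and the open circle is the control nearest to the red points for 10 of the rises and 13 of the falls.

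CML37, a calmodulin-like calcium sensor that responds to wounding and drought, had 5.86 with BL and 6.05 with solvent at 100 mM. The controls had 2.16, 2.23 and 2.76 as the lowest, median and highest value. The treated arrays were far above all controls, and CML37 rose by 3.63 ± 0.18 (SE, limma adjusted p = 0.000358). It passed the filter through the treated arrays alone, and with no filter its adjusted p was 0.00189. It was the only called member of 7 tested calcium sensor and kinase genes, whose median change was -0.46, or -0.30 without the solvent array at 100 mM.

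AT1G52560, a small heat shock protein of the kind that binds unfolding proteins, had 8.29 with BL and 8.43 with solvent at 100 mM, against 2.72, 4.73 and 6.26 in the controls. The groups did not overlap, though the controls alone spanned more than 3 units. They had 4.83, 6.26 and 6.23 with BL and 2.72, 3.24 and 4.64 with solvent, so every BL control lay above every solvent control. The rise of AT1G52560 was 3.71 ± 0.72 (SE, limma adjusted p = 0.0367). It was the single called rise of 17 tested heat shock proteins and partners. No member fell, and 13 of the 17 had a positive change. Their median was 0.73, or 1.74 without the BL array and 0.07 without the solvent array at 100 mM. Leaving out any single array other than solvent replicate 3 at 0 mM ended the call of AT1G52560, with changes of 2.52 to 4.89, and its adjusted p was 0.0966 with no filter. LTI30, a dehydrin that protects membranes under cold and drought, had 9.89 with BL and 10.35 with solvent at 100 mM, against 7.82, 8.12 and 8.67 in the controls. No control reached either treated array, and LTI30 rose by 1.91 ± 0.29 (SE, limma adjusted p = 0.0183). COR27, a cold-responsive regulator of the clock and of light signalling, fell by 1.06 on the log2 scale (adjusted p = 0.0252).

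The second largest rise among genes with a probe set of their own was that of AT5G05220, for which no role is given here. It had 7.63 with BL and 7.74 with solvent at 100 mM, against 2.59, 2.98 and 3.22 as the lowest, median and highest control. The treated arrays were more than 4 units above every control, and the change was 4.76 ± 0.22 (SE, limma adjusted p = 0.000289). AT5G05220 passed the filter through the treated arrays alone, and with no filter its adjusted p was 0.00189. Further rises among genes known here by locus alone were AT5G54300 with 3.58 (adjusted p = 0.0141), AT4G27657 with 3.51 (0.00207), AT2G14160 with 3.42 (0.0193) and AT3G55840 with 3.33 (0.0399). The last 3 of these had fewer than 2 controls at the filter value. With no filter their adjusted p were 0.00836, 0.0598 and 0.105, so AT2G14160 and AT3G55840 were not called. AT5G25240 rose by 3.39 (adjusted p = 0.0341, and 0.0881 with no filter) and differed between the treated arrays. It had 8.09 with BL and 9.28 with solvent at 100 mM, against 3.65, 5.72 and 6.06 in the controls.

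The plastid genome encodes subunits of the photosynthetic complexes, of an NADH dehydrogenase-like complex, of the plastid ribosome and of a bacterial-type RNA polymerase. Many of these genes lie in operons, whose long transcripts are cut, edited and trimmed by nucleus-encoded proteins. All 69 plastid-encoded genes with a probe set of their own were tested. Of these, 17 rose (24.6%) and 5 fell (7.25%), beside 2.83% and 1.79% of all genes with a probe set of their own. Their median change was 0.27, which was 0.12 without solvent replicate 3 at 0 mM, 0.17 and 0.15 without BL replicate 1 or 3, and 0.17 without the BL array at 100 mM. Both 100 mM arrays lay above all controls for 29 of the 69 and below all controls for 11. Over all probe sets tested, 13.2% lay above and 12.8% below, so the count below is near that share. The labelling kit primes on poly(A) tails, which plastid transcripts mostly lack, so a value here is the RNA that this kit labelled. The 3′ excess given above was raised at 100 mM, and at 5 mM it was 1.57 with BL and 1.53 with solvent. Its control range was 1.40 to 1.60. Of genes taken up below, rps14 had 8.46 with BL and 8.95 with solvent at 5 mM, and petD 7.45 and 7.20. Both lay above all controls, whereas psbE, with 11.87 and 12.20, lay below all. The mean of the 69 genes at 5 mM was 10.79 with BL and 11.18 with solvent, against 10.47 to 11.10 in the controls, so the BL array lay within the control range. rps14, petD and psbE are 3 genes picked from the 69, and the part of the 3′ excess in the plastid values was not tested. Leaving out 1 array at 100 mM left 1 rise and 0 falls without the BL array, and 3 rises and 1 fall without the solvent array. Leaving out solvent replicate 1, 2 or 3 at 0 mM left 11, 14 and 19 rises with 3, 3 and 10 falls. Leaving out BL replicate 1, 2 or 3 left 11, 12 and 17 rises with 3 falls each.

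Genes of the plastid's own expression machinery held the largest change of the comparison. rps14, a protein of the small ribosomal subunit, had 10.90 with BL and 11.04 with solvent at 100 mM. The controls had 4.24, 5.47 and 6.94 as the lowest, median and highest value. Both treated arrays lay about 4 units above the highest control, and the rise was 5.54 ± 0.60 (SE, limma adjusted p = 0.00707), or 46.4-fold. Of 15 tested ribosomal protein genes, 4 rose and none fell, the others being rps15 (2.68, adjusted p = 0.00464), rps16 (2.43, 0.00783) and rpl20 (2.34, 0.0244). With no filter rpl20 was not called (adjusted p = 0.0658). The median of the 15 was 0.29, or 0.12 without solvent replicate 3 at 0 mM. rpoB, the β subunit of the RNA polymerase, had 9.15 with BL and 9.15 with solvent at 100 mM, against 4.39, 5.28 and 5.65 in the controls. The treated arrays were level with each other and above all controls, and rpoB rose by 4.03 ± 0.31 (SE, limma adjusted p = 0.00246). rpoC2, another subunit, rose by 2.41 (adjusted p = 0.00647), whereas rpoC1 and rpoA had changes of 0.29 and 0.36 that did not pass the test.

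The cytochrome b6f complex, which carries electrons between the photosystems, had 3 rises among 6 tested genes and a median change of 1.73. petD, its subunit IV, had 9.34 with BL and 9.36 with solvent at 100 mM, against 3.94, 4.56 and 6.07 in the controls. The groups were more than 3 units apart, and petD rose by 4.60 ± 0.46 (SE, limma adjusted p = 0.00612), or 24.3-fold. Only 1 control of petD reached the filter value, and with no filter its adjusted p was 0.0217. petN, a small subunit, had 11.50 and 11.28 at 100 mM, against 6.69, 7.76 and 8.66 in the controls, and rose by 3.67 ± 0.42 (SE, adjusted p = 0.00783). petG, another small subunit, rose by 2.45 (adjusted p = 0.0492, but 0.124 with no filter). petB, the cytochrome b6 gene, changed by -0.30 (adjusted p = 0.366) and so did not pass the test.

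Photosystem II genes changed in both directions. Of 15 tested, 3 rose and 3 fell. Their median was -0.35, or -0.54 without the BL array and -0.07 without the solvent array at 100 mM, and -0.22 without solvent replicate 1 at 0 mM. psbN, needed to assemble the reaction centre, had 11.90 with BL and 11.83 with solvent at 100 mM, against 8.52, 8.74 and 9.03 in the controls. The treated arrays stood almost 3 units above the highest control, and psbN rose by 3.13 ± 0.17 (SE, limma adjusted p = 0.000488). psbT, a small subunit, rose by 2.92 (adjusted p = 0.00783) and psbB, the inner antenna protein CP47, by 2.61 (0.0308). With no filter psbB was not called (adjusted p = 0.0801). psbE, one of the subunits of cytochrome b559, had 10.86 with BL and 11.05 with solvent at 100 mM, against 12.62, 12.81 and 12.88 in the controls. Here the treated arrays lay below every control, and psbE fell by 1.83 on the log2 scale (SE 0.14, limma adjusted p = 0.00246), a 3.54-fold drop. psbF, the other cytochrome b559 subunit, fell by 1.09 (adjusted p = 0.008) and psbL, a small subunit, by 0.75 (0.046).

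Genes of the NADH dehydrogenase-like complex, which returns electrons to the plastoquinone pool, gave 4 rises and 1 fall among 10 tested. The rises were ndhF (3.22, limma adjusted p = 0.0281), ndhG (2.67, 0.0183), ndhH (2.63, 0.0392) and ndhD (1.89, 0.00783). With no filter ndhF (adjusted p = 0.0761), ndhG (0.0539) and ndhH (0.1) were not called, and ndhD was (0.0217). ndhA had 10.85 with BL and 10.53 with solvent at 100 mM, against 12.15, 12.63 and 12.76 in the controls. It was the one called fall of the complex, with both treated arrays below all controls, and it fell by 1.88 (SE 0.18, adjusted p = 0.00572). psaC, the iron-sulfur subunit of photosystem I, rose by 3.06 (adjusted p = 0.0145) and was the only called gene of 5 in that complex. Of 6 ATP synthase genes, atpB, the β subunit, fell by 0.62 (adjusted p = 0.0389) and no other member was called.

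Called genes in either direction stood beside one another and beside uncalled genes in the order of the RefSeq annotation. psbJ, psbL, psbF and psbE follow one another. The last 3 of these fell, and psbJ had a change of -0.52 (adjusted p = 0.109). psbB, psbT and psbN, which are neighbours, all rose. The next genes, psbH and petB, had changes of -0.47 and -0.30 that did not pass the test, and petD, which follows them, rose. In the run ndhD, psaC, ndhE, ndhG, ndhI, ndhA, ndhH and rps15, 5 genes rose, and ndhA, which lies between ndhI and the rising ndhH, fell. ndhE and ndhI had changes of 1.55 (adjusted p = 0.112) and -0.58 (0.0703). rpoC2 rose, rpoC1 next to it was not called, and rpoB and petN beyond it rose. Neighbouring genes can share a transcript, so members of one run are not independent of one another.

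**Figure D2:**
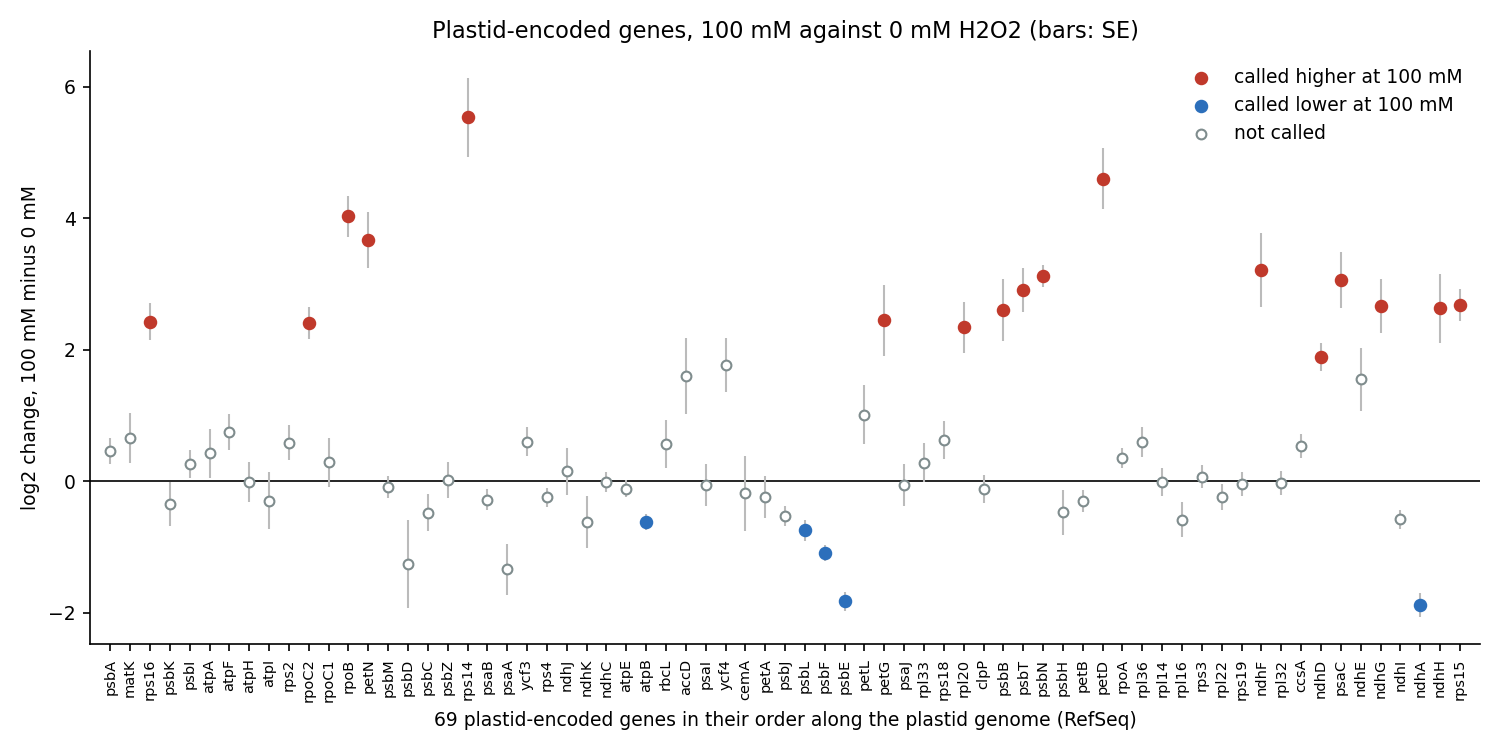
Log2 change at 100 mM minus 0 mM (vertical axis, bars are SE) of the 69 plastid-encoded genes in their annotated order along the plastid genome (horizontal axis, not to scale). Called rises are red, called falls blue and uncalled genes open, and rising, falling and uncalled genes stand side by side, as in the run from ndhD to rps15.

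Among mitochondria-encoded genes, 1 of 11 tested rose and none fell. nad4, a subunit of respiratory complex I, had a change of 1.41 (limma adjusted p = 0.0372, but 0.083 with no filter). When any single control other than solvent replicate 3 was left out, 0 members were called, and without that replicate 3 rose. Nucleus-encoded photosynthesis genes did not pass the test in either direction: 0 of 12 were called, and their median change was 0.10, which ran from -0.01 to 0.32 with single arrays left out. With 4.94% of all probe sets called, 0 of 12 does not set them apart.

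The largest fall was that of a class III peroxidase, a secreted enzyme that uses H2O2 to oxidise phenols and to stiffen or loosen the cell wall. AT4G26010 had 2.76 with BL and 3.21 with solvent at 100 mM. The controls had 6.61, 7.84 and 8.30 as the lowest, median and highest value. Both treated arrays were near the smallest possible value and below all controls, and AT4G26010 fell by 4.77 on the log2 scale (SE 0.44, limma adjusted p = 0.00475), or 27.3-fold. Of 55 class III peroxidases 29 were tested, and of these 2 rose (6.9%) and 3 fell (10.3%). Over all genes with a probe set of their own, 2.83% rose and 1.79% fell. The median change of the 29 was -0.56, or -0.37 without the solvent array at 100 mM. Over the alternative settings it ran from -0.81 to -0.09. Both treated arrays lay below all controls for 8 of the 29, and for 12.8% of all probe sets tested. AT5G51890 fell by 1.81 (adjusted p = 0.0353) and AT3G01190 fell by 1.78 (0.0359). AT2G22420 rose by 1.24 (adjusted p = 0.0181) and AT5G58390 by 0.97 (0.0409). With no filter these 2 adjusted p were 0.0355 and 0.0708. Cross-hybridisation between members of this large family was not tested. No member was called without either 100 mM array, at most 1 rose and 1 fell without any single control other than solvent replicate 3, and without that replicate 6 rose and 13 fell.

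AT4G26010 is also one of 5 tested genes known for expression in root hairs, and 4 of these 5 are peroxidases counted above. All 5 had negative changes, 4 had both treated arrays below all controls (12.8% of all probe sets tested), and only AT4G26010 passed the test with 8 arrays. The median was -3.50, and it ran from -4.24 to -1.59 over the alternative settings. Only 5 of the 12 genes of this list were tested. A gene low at 100 mM passes the filter only through its controls, so genes low on all arrays were left out. The shared direction of the 5 is thus no separate support. The mean level of the 5 genes was 2.91 with BL and 3.28 with solvent at 100 mM, against 4.30, 6.69 and 7.18 in the controls, the lowest control being solvent replicate 3. In RNA from whole seedlings, fewer cells of a type and less RNA per cell cannot be told apart.

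Genes of guard cells, the cell pair that opens and closes each stomatal pore, fell too. FMA, a transcription factor of the final step from guard mother cell to guard cells, had 5.04 with BL and 3.59 with solvent at 100 mM, against 6.74, 7.21 and 7.48 in the controls. Every control lay above both treated arrays, and FMA fell by 2.85 (SE 0.30, limma adjusted p = 0.00647), or 7.23-fold. AT4G14480, the blue light signalling kinase BLUS1 of guard cells, had 3.28 with BL and 4.93 with solvent at 100 mM, against 5.93, 7.08 and 7.25 in the controls, and fell by 2.81 (SE 0.51, adjusted p = 0.0305). CHX20, a cation exchanger of guard cell endomembranes that takes part in stomatal opening, had 4.47 and 6.08 at 100 mM, against 7.46, 7.60 and 8.44 in the controls, and fell by 2.47 (SE 0.31, adjusted p = 0.00982). For AT4G14480 and CHX20 the array with BL was the lower of the treated pair, and for FMA it was the higher. Of 4 tested guard cell and stomatal genes these 3 fell, and FMA and AT4G14480 are themselves among the 15 largest falls. The list was collected after the files had been seen and is no separate support for them. STOMAGEN, a mesophyll-made peptide that promotes stomata, had a change of 1.10 (adjusted p = 0.298) and was not called. At least 1 gene of the list fell in each fit without 1 array, 1 without either 100 mM array, 2 without any control other than solvent replicate 3, and 3 without that replicate.

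EXPA16, an expansin of the family that loosens cell walls, had 4.19 with BL and 4.68 with solvent at 100 mM, against 6.75, 8.31 and 8.58 in the controls. Both treated arrays were below all controls, the nearest being solvent replicate 3, and EXPA16 fell by 3.66 (SE 0.47, limma adjusted p = 0.0103), or 12.6-fold. It was the single fall among 7 tested expansins, and EXLA1, an expansin-like gene, was the single rise with 1.43 (adjusted p = 0.0183). No member was called among 5 xyloglucan endotransglucosylase genes, 5 cell wall and arabinogalactan protein genes and 6 cellulose synthase family genes. With 4.94% of all probe sets called, this does not set these groups apart. AT1G22690, a gibberellin-regulated GASA peptide, had 8.67 and 9.83 at 100 mM, against 11.57, 12.22 and 12.51 in the controls, and fell by 2.91 (adjusted p = 0.00841). AT1G75880, a GDSL-type lipase, had 3.18 and 4.97 at 100 mM, against 7.06, 8.15 and 8.72 in the controls, and fell by 4.04 (adjusted p = 0.0146). For both genes the array with BL was the lower of the treated pair and both treated arrays lay below all controls. TUA6, an α-tubulin, fell by 0.70 (adjusted p = 0.0464) and was the single call among 8 tubulin and actin genes. Its call was lost when any single control other than solvent replicate 3 was left out, and without that replicate 3 members fell.

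SWEET10, a sucrose transporter, had 3.98 with BL and 4.29 with solvent at 100 mM, against 6.46, 6.73 and 7.05 in the controls. The controls were close together and all above the treated arrays, and SWEET10 fell by 2.62 (SE 0.17, limma adjusted p = 0.00097), or 6.15-fold. AT5G41670, a 6-phosphogluconate dehydrogenase, which makes NADPH in the oxidative pentose phosphate pathway, had 8.82 and 8.45 at 100 mM, against 10.39, 11.65 and 12.34 in the controls. It fell by 2.85 (SE 0.33, adjusted p = 0.00783), with both treated arrays below all controls.

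AT1G52070, a jacalin-type lectin of a cluster of similar root genes, had 4.19 and 4.30 at 100 mM, against 5.55, 7.69 and 8.10 in the controls, and fell by 3.17 (limma adjusted p = 0.0341). AT1G52100, of the same family, rose by 0.90 (adjusted p = 0.0392, but 0.0609 with no filter), and the other 9 of 11 tested family members were not called. AT5G02540, with no role given here, had 4.66 and 5.35 at 100 mM, against 7.98, 8.09 and 8.36 in the controls, and fell by 3.12 (SE 0.18, adjusted p = 0.000578). Its treated arrays lay about 3 units below controls that were themselves almost level. Other falls among genes known here by locus alone were AT5G25840, AT3G62820, AT5G11360, AT1G21540 and AT4G17670, with log2 changes of -3.29, -3.16, -3.12, -2.65 and -2.54 at limma adjusted p of 0.016, 0.00783, 0.0102, 0.0285 and 0.0158.

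With 8 arrays, 0 members were called among 6 antioxidant enzyme genes, 5 WRKY transcription factors, 12 cytochromes P450 and 11 glutaredoxins. Since 4.94% of all probe sets were called, 0 calls in groups of this size does not set them apart. The median change of the antioxidant genes was 0.04. That of the WRKY genes was -0.30, but 0.18 without the solvent array and -1.82 without the BL array at 100 mM. Among 15 lectin, endoplasmic reticulum body and β-glucosidase genes, none was called and the median was 0.73, or 0.48 without solvent replicate 3 at 0 mM. A gene that misses the threshold is not shown to be unchanged, since only 2 arrays carry the treatment.

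**Figure D3:**
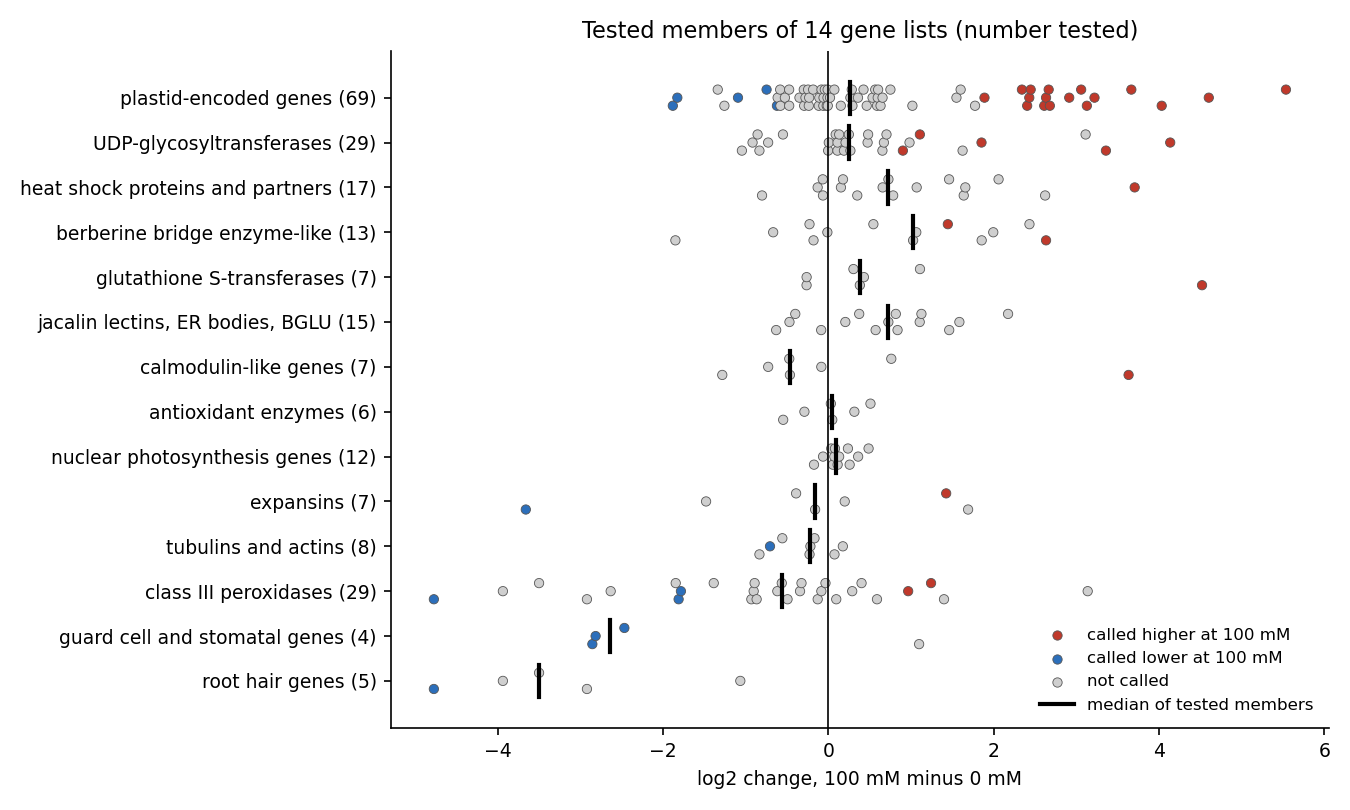
Log2 change at 100 mM minus 0 mM (horizontal axis) of each tested member of 14 gene lists (vertical axis, number tested in brackets), with called rises red, called falls blue, uncalled members grey and the median as a black bar. The plastid-encoded genes spread from -1.88 to 5.54. The guard cell and root hair lists, with medians of -2.64 and -3.50, were collected after the files had been seen and hold some of the 15 largest falls.

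The comparison was repeated without solvent replicate 3 at 0 mM, the control that stood apart. With the remaining 7 arrays, limma called 3510 of 12849 probe sets, or 27.3%, of which 1700 were higher (13.2%) and 1810 lower (14.1%) at 100 mM. All 640 probe sets called with 8 arrays were among them, each in the same direction, and they make up 18.2% of the longer list. That direction was fixed in advance wherever both 100 mM arrays lay outside all controls, as for 386 rises and 252 falls. Among the 15 largest rises, solvent replicate 3 was the highest control for 10 and the lowest for 1. Among the 15 largest falls it was the lowest control for 13 and the highest for 1. All 30 were called without it.

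The largest gained rises included 2 glutaredoxin genes. Over the 11 tested glutaredoxins, the repeat called 3 rises and 2 falls. AT3G62950, a glutaredoxin of the plant-specific class known to bind TGA transcription factors, had 8.40 with BL and 9.03 with solvent at 100 mM, against a control median of 4.02 and a range of 3.21 to 7.69. The highest control was solvent replicate 3, and without it the change was 4.78 ± 0.32 (SE, limma adjusted p = 0.000154), while with it the adjusted p was 0.0603. GRX480, another glutaredoxin, which links salicylic acid to jasmonate responses, had 7.59 and 7.41 at 100 mM, against 3.38 to 7.25 in the controls, solvent replicate 3 again being the highest. Its change was 3.69 without that array (adjusted p = 0.000171, and 0.109 with it). UGT73B5, a relative of UGT73B4 known for a part in resistance to bacteria, changed by 3.52 (adjusted p = 0.00144, and 0.0651 with the array). AT3G60420 and the peroxidase AT4G08780 were the other 2 of the 5 largest gained rises, with 4.15 (adjusted p = 0.000418) and 3.74 (0.00602).

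The largest gained falls included 2 peroxidase genes. AT1G34510, a class III peroxidase, was at 2.12 on both 100 mM arrays, the smallest value there is, against a control median of 6.74 and a range of 2.87 to 7.46. Solvent replicate 3 held the low end of that range, and without it the change was -4.55 (limma adjusted p = 0.000582, and 0.0817 with it). AT1G30870, another peroxidase, changed by -4.03 without that array (adjusted p = 0.000181, and 0.0677 with it), and the lectin AT1G52060 by -3.90 (4.68e-05, and 0.0528 with it). AT4G34950 changed by -4.17 without it (adjusted p = 0.000504, and 0.271 with it). For AT4G34950 solvent replicate 3 had 3.17 and so lay below both treated arrays, which had 4.62 and 5.32. AT5G20790 changed by -3.87 (adjusted p = 0.00628, and 0.0677 with it).

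By list, the repeat called 10 rises and 4 falls among the 29 UDP-glycosyltransferases, 6 rises and 13 falls among the 29 peroxidases, and all 5 root hair genes as falls. Heat shock genes gave 6 rises and 1 fall of 17, and lectin, endoplasmic reticulum body and β-glucosidase genes 8 rises and 1 fall of 15. Among plastid-encoded genes 19 rose and 10 fell. For the nuclear photosynthesis genes and the WRKY factors the repeat still called none. These counts stand beside backgrounds of 13.2% and 14.1%, far above those with 8 arrays, and whether the 7 or the 8 arrays describe untreated seedlings better was not tested.

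**Figure D4:**
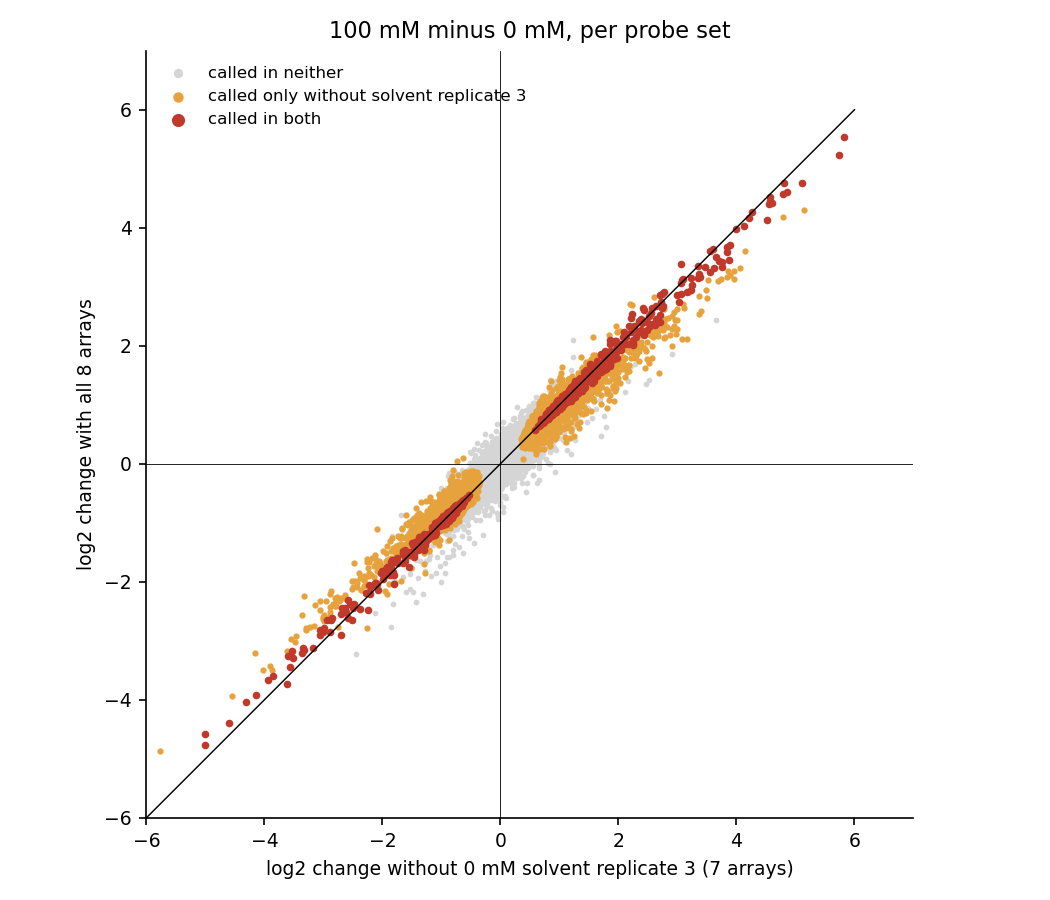
Log2 change at 100 mM minus 0 mM per probe set with all 8 arrays (vertical axis) against the change without 0 mM solvent replicate 3 (horizontal axis), with probe sets called in both fits in red, only without that array in orange and in neither in grey. The 640 red points have the same sign in both fits, and the 2870 orange points were called only with 7 arrays; the diagonal marks equal change.

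The arrays also allow the effect of 100 mM H2O2 with BL to be set against its effect with solvent. No probe set of 12953 was called for this interaction by limma (percent called 0), the smallest adjusted p was 0.952, and 184 probe sets (1.42%) had an unadjusted p under 0.05. Each arm has a single array at 100 mM, so the spread comes from the controls alone. Among the genes above, AT1G22690, AT4G14480, AT5G25840, FMA, AT3G62820, AT1G75880 and CHX20 had unadjusted p of 0.0163, 0.022, 0.0242, 0.0327, 0.0327, 0.0458 and 0.0482 for the interaction, and all had an adjusted p of 0.952. In FMA the fall was smaller with BL, by 1.20 on the log2 scale, and in the others it was larger, by 1.18 in CHX20 to 2.16 in AT1G75880.

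The 100 mM arrays were also compared with lower doses, in 1 model of all 16 arrays that held the 6 doses and BL. These comparisons use the same 2 arrays at 100 mM as the one against 0 mM, so the results are given side by side and are not independent. Against 50 mM, limma called 0 of 13140 probe sets (percent called 0), the smallest adjusted p was 0.269, and 234 (1.78%) had an unadjusted p under 0.05. Against 1 mM it called 977 of 13140 (7.44%), of which 472 were higher (3.59%) and 505 lower (3.84%) at 100 mM. Without solvent replicate 3 at 0 mM, which is no part of the contrast but enters the estimate of the spread, these counts were 1 and 3083. Against 1 mM they were 240 and 343 without the BL or the solvent array at 100 mM, and 237 and 304 without the BL or the solvent array at 1 mM.

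Several detoxification and stress genes that rose at 100 mM were higher still at 1 mM. GSTU25 had 9.05 with BL and 9.14 with solvent at 1 mM, 9.24 and 9.05 at 5 mM, 8.32 and 8.07 at 25 mM, 7.25 and 7.01 at 50 mM, and 6.89 and 6.80 at 100 mM. All treated arrays lay above the controls, and the level at 100 mM was lower than at 1 mM by 2.25 on the log2 scale (limma adjusted p = 0.000103). CML37 and GT72B1 were lower than at 1 mM in the same way, with differences of -1.42 (adjusted p = 0.00273) and -1.57 (0.0037). AT1G52560 had 10.54 and 10.59 at 1 mM and 8.29 and 8.43 at 100 mM, a difference of -2.21 that did not pass the test (adjusted p = 0.126). LTI30 was lower at 100 mM than at 1 mM by 1.74 (adjusted p = 0.00597), though both doses exceeded the controls. Of the 17 heat shock genes, 9 were lower at 100 mM than at 1 mM and none was higher, with a median of -2.47. Over all probe sets tested, 3.84% were lower in this way. Their mean level was 11.63 and 11.69 at 1 mM, 11.04 and 10.62 at 5 mM, 9.97 and 9.70 at 25 mM, 9.81 and 9.35 at 50 mM, and 9.09 and 9.40 at 100 mM, each with BL first. The controls ranged from 7.04 to 9.06, so the heat shock mean at 100 mM was just above the highest of them.

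For some plastid-encoded genes 100 mM gave the higher value of these doses. rps14 had 5.73 with BL and 6.38 with solvent at 1 mM, 8.46 and 8.95 at 5 mM, 10.81 and 9.37 at 25 mM, 10.22 and 9.62 at 50 mM, and 10.90 and 11.04 at 100 mM. The 1 mM arrays lay within the range of the controls, and 100 mM exceeded 1 mM by 4.91 (limma adjusted p = 0.00249). Against 1 mM, 16 of the 69 plastid-encoded genes were higher and 4 lower at 100 mM. Over all probe sets tested 3.59% were higher and 3.84% lower, so the count of lower genes is near that share. Of the 15 largest rises over 0 mM, 4 were called higher than at 1 mM as well, namely rps14, petD, rpoB and petN, all plastid-encoded, with differences of 3.40 to 4.91. Of the other 11, 3 were called lower than at 1 mM and 8 in all had a mean below that at 1 mM.

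All 15 genes with the largest falls had a lower mean at 100 mM than at 1 mM, by 1.08 to 3.18, and 9 of these differences passed the limma test. EXPA16 had 6.69 with BL and 6.65 with solvent at 1 mM, 5.99 and 5.80 at 5 mM, 5.75 and 5.39 at 25 mM, 4.42 and 4.35 at 50 mM, and 4.19 and 4.68 at 100 mM. FMA had 5.84 and 5.64 at 1 mM, 5.60 and 5.97 at 5 mM, 5.16 and 5.44 at 25 mM, 4.69 and 5.16 at 50 mM, and 5.04 and 3.59 at 100 mM. For both genes every array at 100 mM lay below both arrays at 1 mM. The mean level of the root hair genes was 3.61 with BL and 4.00 with solvent at 1 mM, and 2.91 and 3.28 at 100 mM, and so was also lower at the higher dose.

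The 5 largest called excesses of 100 mM over 1 mM were rps14, petD, rpoB, petN and AT2G07721, the last with 3.26 (limma adjusted p = 0.000659). The 5 largest deficits were AT4G22980 with -4.58 (adjusted p = 0.00314), AT1G07160, a protein phosphatase 2C, with -4.25 (0.017), AT1G22810, an ERF-type transcription factor, with -4.15 (6.34e-05), AT5G16980 with -3.97 (0.00015) and AT1G21550, an EF-hand calcium-binding protein, with -3.82 (0.0135). AT5G16980 was nevertheless higher at 100 mM than at 0 mM (adjusted p = 0.0465, but 0.104 with no filter). Only 1 of its controls reached the filter value. AT1G21550 was not called against 0 mM (adjusted p = 0.515).

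**Figure D5:**
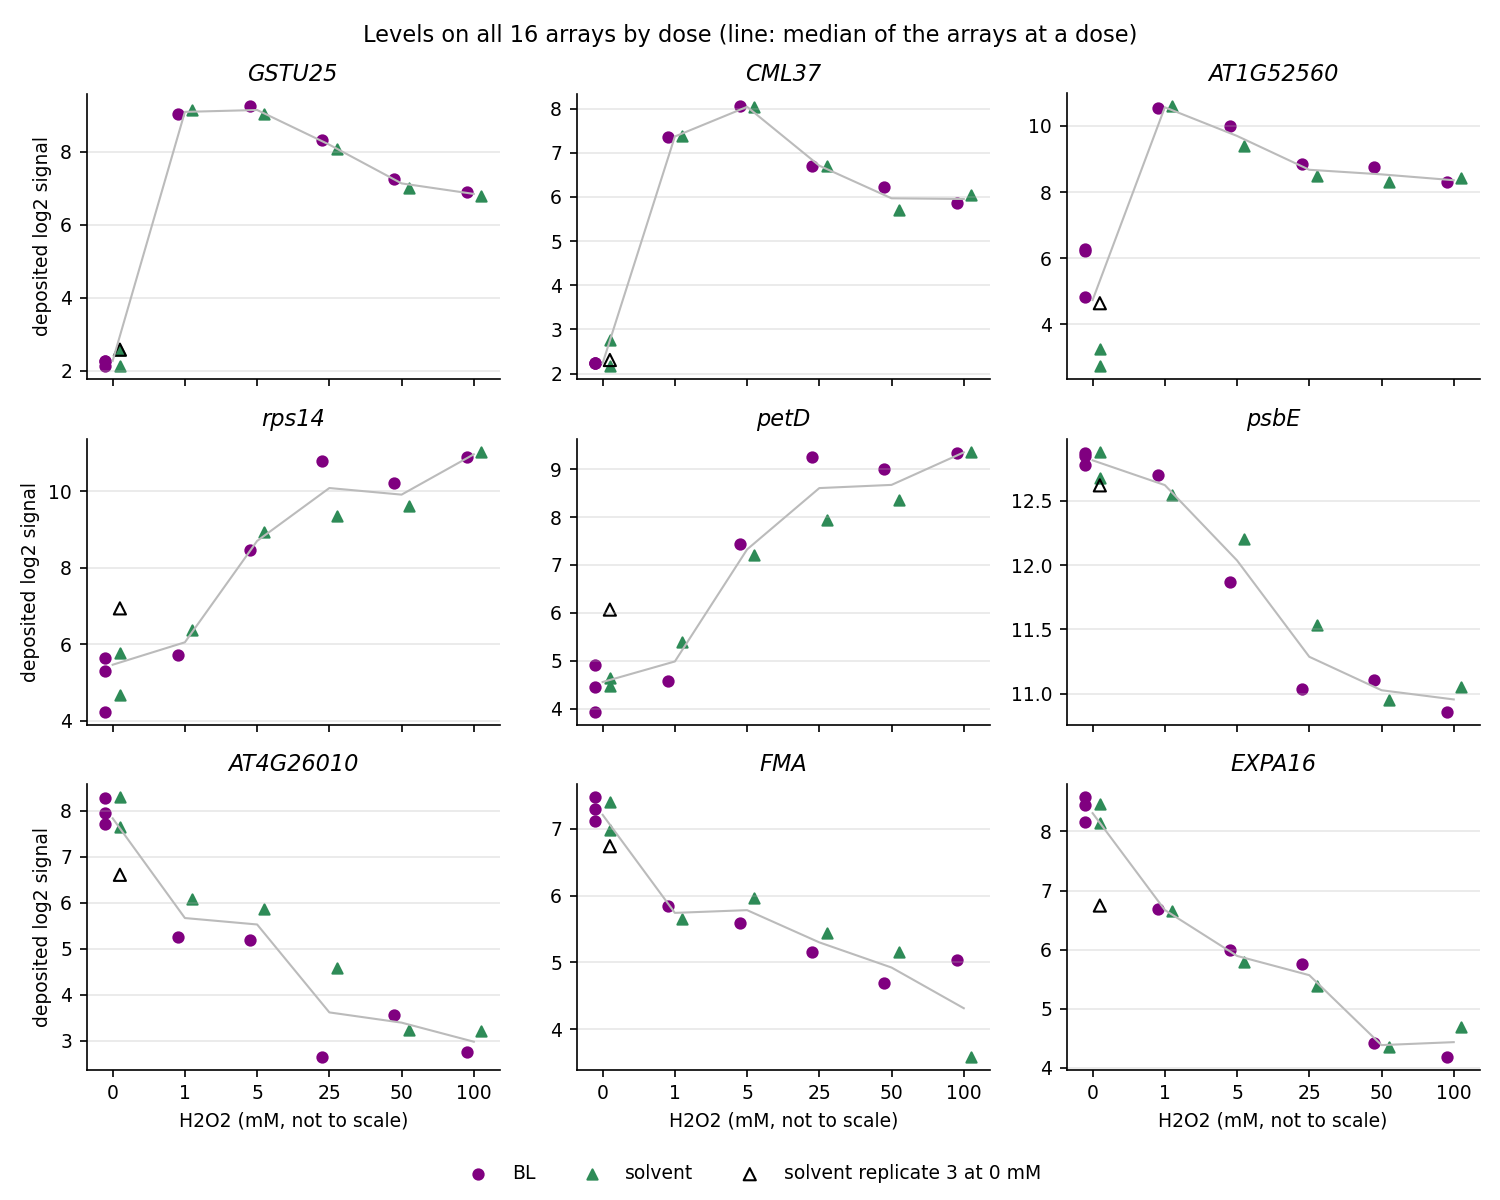
Deposited log2 signal (vertical axes) of 9 genes on all 16 arrays by H2O2 dose (horizontal axis, not to scale), with BL as circles, solvent as triangles, solvent replicate 3 at 0 mM open and the median of a dose as a line. GSTU25 is highest at 1 and 5 mM, whereas rps14 is at the control level at 1 mM and about 11 at 100 mM.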

How the data were processed

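The values the authors deposited are log2 signals of probe sets, which came from GCRMA, per the submitters' processing notes. GCRMA corrects background by probe sequence, normalises between arrays and summarises probes. Its version and the array's genome build are not given in the sources used here. All deposited columns were used without rescaling. Of 22810 entries, 64 control probe sets were left out, and of the other 22746 the platform annotation gives 13513 a single gene, 503 several and 8730 none. RefSeq names (assembly TAIR10.1) matched 13436.

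Probe sets with a value of at least 5 on at least 2 arrays of a fit were tested with limma 3.58.1 (lmFit, eBayes; statmod 1.5.0, R 4.3.3) at a Benjamini-Hochberg adjusted p under 0.05. A gene stands for its probe set with the highest mean. The fit to 8 arrays had H2O2 and BL as terms. A further term gave the interaction, and comparisons with 50 and 1 mM used all 16 arrays. The procedure was tested on simulated data. Arrays have no read depth, and their number limits the precision. Whether the 3 replicate numbers at 0 mM pair the arrays is not settled, and the main fits did not use them. The same-numbered correlations of deviations were 0.187, 0.109 and -0.0661 for replicates 1, 2 and 3. Those between different numbers were -0.238 to 0.0781, -0.178 to 0.0451 and 0.000787 to 0.0747.

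Named genes are the 15 largest called rises and falls without overlap, the 5 largest each way in other comparisons, and up to 4 called members of a list plus examples of its roles. Members and lists were chosen with earlier results of these data known, and locus lists were added after the files were seen. Alternatives were another filter, scaling, array weights, a replicate block, other sets of arrays, and each array left out. Promoter sequence was not used here.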

Additional observations from a re-analysis of the deposited data

Results flagged for a closer look

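For each of the 30 genes with the largest changes, the 6 arrays at 0 mM H2O2 were searched for a value set apart from the other 5 by more than Dixon's critical share of the range for 6 values. Chance alone sets such a value apart in about 1 of 20 independent groups. The 30 genes share the same 6 arrays and were chosen by these values, so that rate is no measure for them. The share over all probe sets was not computed. Such a value was found for 10 of the 30 genes, and in 9 of these it was that of solvent replicate 3.

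In 4 rising genes solvent replicate 3 was high, nearer to the 100 mM arrays. UGT73B4 had 4.80 there, with the nearest other control at 2.45. AT4G27657 had 3.36, with the nearest at 2.55, and AT2G14160 had 4.07, with the nearest at 2.26. AT3G55840 had 6.11, with the nearest at 3.94. In 5 falling genes it was low. EXPA16 had 6.75 there (nearest 8.15), AT1G52070 had 5.55 (nearest 7.60), AT1G22690 had 11.6 (nearest 12.2), AT4G14480 had 5.93 (nearest 6.99) and AT1G21540 had 4.07 (nearest 5.28). In the tenth gene, CML37, solvent replicate 2 was high, at 2.76 with the nearest control at 2.31. All these values lie between the remaining controls and the 100 mM arrays.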

How the results depend on the processing

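The 640 calls against 0 mM became 3516 with array weights, 10 with a replicate block, 2037 in the fit to all doses, 21 and 35 for the solvent and BL contrasts of the 8-array model with an interaction, and 4253 without both solvent replicates 1 and 3, a setting chosen after seeing the data. They ranged from 21 to 3482 when single arrays were left out, on the same probe sets: 21 and 35 without the BL or solvent array at 100 mM, 206, 417 and 3482 without solvent replicate 1, 2 or 3, and 173, 178 and 227 without BL replicate 1, 2 or 3. The other settings (no filter, a filter at 7, quantile or median scaling, a trended robust fit, no BL term, changes of at least 1) gave 448 to 823. Rises were 60.3% of calls, but 51.4% after quantile scaling, 48.4% with array weights and 48.4% without solvent replicate 3. They were 90% with the replicate block, 71.4% for the solvent contrast and 48.5% without solvent replicates 1 and 3. No scaling moved the median of all genes by 0.1. The 3510 calls without solvent replicate 3 became 2197 with no filter, 2304 with a replicate block, 1370 at changes of at least 1, 1102 and 1683 for the solvent and BL contrasts of the 7-array model with an interaction, and ranged from 1102 to 4251 when a further array was left out. For the interaction, 0 calls became 316 with no filter and 1438 with array weights, and it cannot be estimated without either 100 mM array. Against 50 mM, 0 calls became 6 with no filter, 2 with array weights, and 0 to 1 with single arrays left out. Against 1 mM, 977 calls became 4581 with array weights, 622 at changes of at least 1 and 4615 with the arrays from 1 to 100 mM alone, and ranged from 237 to 3083 with single arrays left out. With a replicate block the interaction and 50 mM comparisons gave 0 calls and the 1 mM comparison 1275. Of the 30 genes with the largest changes, 4 were called in every setting in which they were tested (AT5G05220, GSTU25, CML37 and SWEET10) and none changed direction. The choice of these genes without overlap largely fixed their direction in advance. The cause of the shifts in counts was not tested. With 1 array per 100 mM group and 1 control apart from the rest, counts of calls are not firm here. Values at the smallest signal bound a level rather than measure it.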

Other observations

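Further called genes at 100 mM H2O2 were chosen after their values were seen, and several lost their call with no filter. MSRB6, a methionine sulfoxide reductase, which turns oxidised methionine in proteins back, had 9.27 with BL and 9.0 with solvent at 100 mM, against 5.23, 6.63 and 7.09 as the lowest, median and highest control. Both treated arrays were above all controls, and MSRB6 rose by 2.65 ± 0.44 (SE, limma adjusted p = 0.0239, but 0.0658 with no filter). MSRB5, of the same family, rose by 1.32 ± 0.16 (SE, adjusted p = 0.009, and 0.0173 with no filter). MSRB9 and MSRB3 had changes of -0.23 and 0.23 that did not pass the test. UPB1, a transcription factor known in Arabidopsis roots to repress class III peroxidase genes, had 9.39 with BL and 9.25 with solvent at 100 mM, against 6.91, 7.49 and 8.26 in the controls. It rose by 1.81 ± 0.30 (SE, limma adjusted p = 0.0233, but 0.0588 with no filter), and it was also higher than at 1 mM, by 1.26 (adjusted p = 0.0374). A link to the peroxidase genes was not tested.

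SDP1, the lipase that starts the breakdown of stored oil, rose by 1.66 (limma adjusted p = 0.0453), MGL, which splits methionine, by 1.61 (0.0409), and IVD, which acts in leucine breakdown, by 0.87 (0.0409). With no filter their adjusted p were 0.105, 0.0958 and 0.0626, so none of them was called. AOR, a chloroplast enzyme that reduces reactive carbonyls formed from oxidised lipids, rose by 0.76 (adjusted p = 0.0337, and 0.0289 with no filter). FBL17, an F-box protein that promotes the cell cycle, had 5.46 with BL and 5.58 with solvent at 100 mM, against 6.39, 6.76 and 6.90 in the controls, and fell by 1.19 (adjusted p = 0.0146).

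Solvent replicate 3 at 0 mM held some defence and oxidase genes above the 100 mM arrays. AT1G26380, a berberine bridge enzyme-like gene, had 8.30 with BL and 8.33 with solvent at 100 mM, and 12.93 on that control. AT1G26410, of the same family, was at the smallest value, 2.12, on both 100 mM arrays and had 9.59 on that control.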
